A study of Mus musculus with 9 samples.

Results

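Chemokines are small secreted proteins that steer cells along concentration gradients, and their receptors are G protein-coupled receptors on the responding cells. Atypical receptors bind chemokines without the usual G protein signal and take them up. In bone marrow, stromal cells are known as the main source of the ligand encoded by Cxcl12, which holds blood stem cells and B cell precursors in their niches, and of several monocyte attractants. Most of the signalling receptors are known from white blood cells. The genes described here are all those measured whose single symbol carries a chemokine ligand name (Ccl, Cxcl, Cx3cl, Xcl) or a receptor name (Ccr, Cxcr, Cx3cr, Ackr) followed by a number. They are 54 of the 22180 genes with 1 symbol, read by 55 probe sets out of 33794. The rule takes genes by name, and the members were chosen with earlier results of these data known. They comprise 34 ligands, 16 signalling receptors and 4 atypical receptors.

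The cells were MSC2, a single clone of stromal cells from the bone marrow of C57BL/6 mice aged 6 weeks, compared without induction and after 14 or 28 days of osteoblastic induction, with 3 arrays per group. The medium of the undifferentiated cells was alpha-MEM lacking ascorbic acid. Induction began at confluence, in DMEM that held 1 mM pyruvate, 10 mM beta-glycerophosphate, 0.2 mM of a phosphate of ascorbate and 0.1 µM dexamethasone, a synthetic glucocorticoid. Serum was 10% in both media. Medium, confluence, culture time and induction thus differ together and cannot be told apart, and the replicates, called independent in the series text, all come from 1 clone. Each value is a log2 signal centred on the median of that probe set over the 9 arrays. It compares arrays for 1 gene and says nothing about whether the gene is expressed, or about 1 gene's level against another's. Over all probe sets the standard deviation of an array's values was 0.40 to 0.41 in undifferentiated cells, 0.09 to 0.12 at 14 days and 0.15 to 0.17 at 28 days. Quantile normalization of these values, used as an alternative, removes that difference. Induced arrays outnumber undifferentiated ones, so for genes that change the median lies nearer to the induced arrays. Forcing the same spread on centred values therefore shrinks undifferentiated deviations and widens induced ones. Smaller changes or lost calls in that alternative cannot separate scaling from change. A gene was called changed at an adjusted p under 0.05 from limma fitted over all 22180 genes with Benjamini-Hochberg adjustment, and SE below is the standard error of the log2 change in that fit.

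Of the 54 genes 16 were called at 14 days, 8 up and 8 down, and 16 at 28 days, 9 up and 7 down. That is 29.6% of the family in both comparisons, against 35.7% of all genes at 14 days (18.2% up and 17.5% down) and 39.9% at 28 days (20.4% up and 19.5% down). The arrays of the groups compared did not overlap in 20 family genes at 14 days and 18 at 28 days, against 44.8% and 46.6% of all genes. The median log2 change of the family was 0.01 at 14 days and 0.01 at 28 days, and the median over all genes was 0.01 and 0.02. Both times are set against the same 3 undifferentiated arrays, so their results are not independent. There, 8 genes were up at both times (Cxcl16, Cxcr6, Ackr3, Ackr4, Ccl8, Cxcl17, Cx3cl1 and Ccr7) and 7 were down at both (Cxcl15, Ccl20, Ccl7, Cxcl12, Ccl17, Ccl9 and Cxcl10). A further 36 genes were called in no comparison. When the arrays were quantile normalized again, 15 were called at 14 days, 7 of them up, and 11 at 28 days, 4 up and 7 down. Of the called genes 4 changed at least 2-fold at each time, 1 up and 3 down, against 4.71% and 6.19% of all genes. After quantile normalization again the falls of Ccl20 and Ccl7 at both times and of Cxcl15 at 28 days were smaller than 2-fold, and the rise of Ackr3 at 14 days was larger. Tested for more than a 1.5-fold change, 6 family genes passed at 14 days and 8 at 28 days, against 7.13% and 9.06% of all genes.

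**Figure D1:**
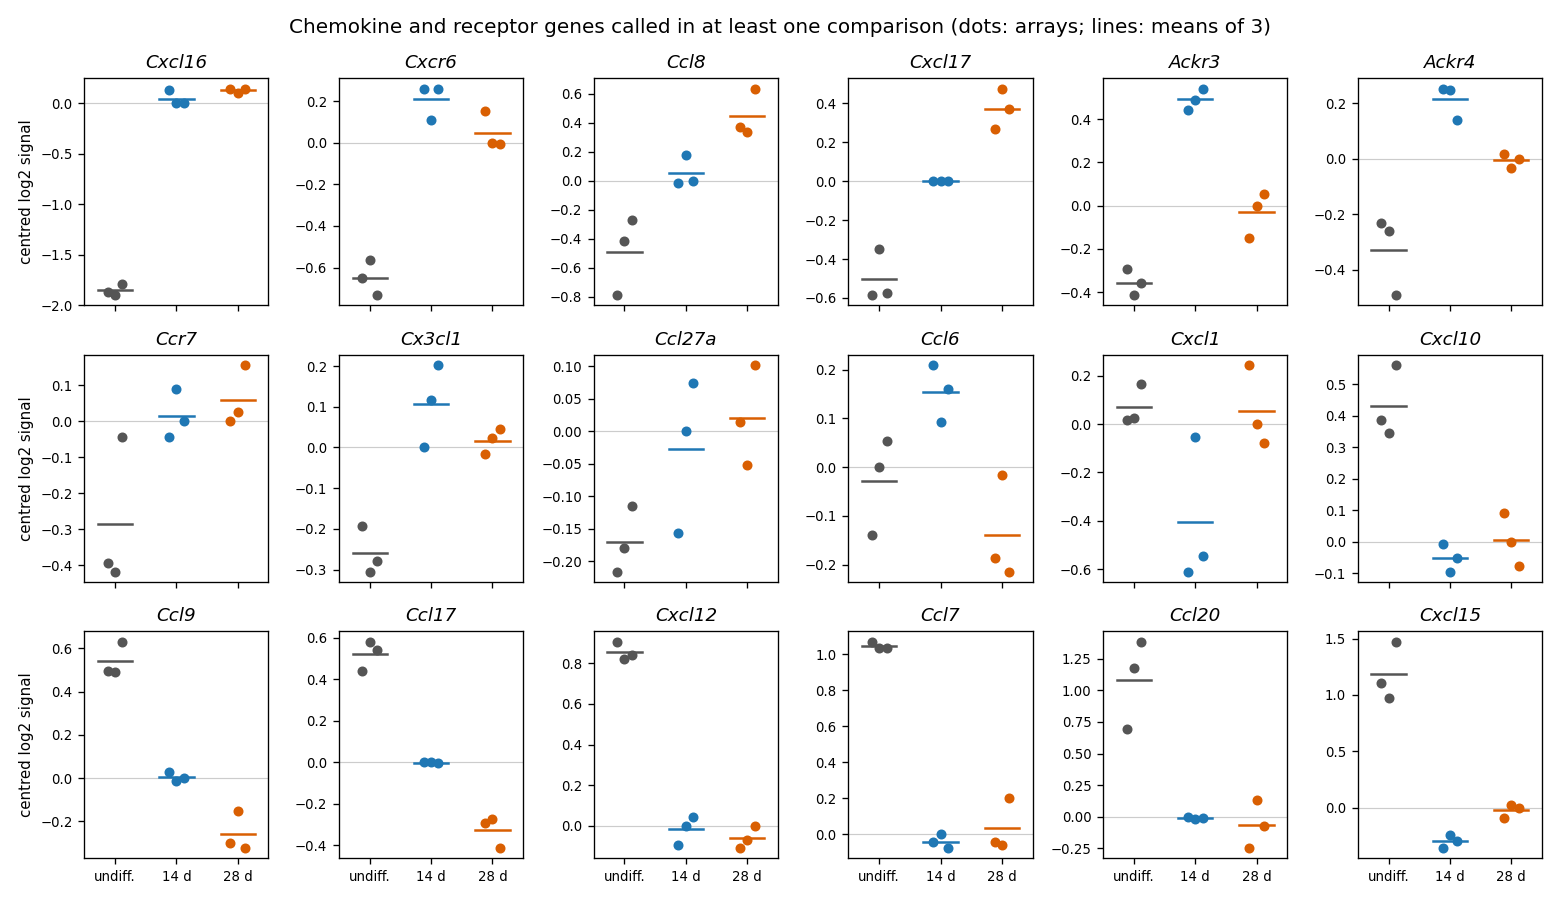
Centred log2 signal (vertical axis, own scale per gene) of the 18 genes called in at least 1 comparison, for undifferentiated, 14-day and 28-day arrays. Dots are arrays and lines are means of 3. Cxcl16 and Cxcl12 have no overlap between undifferentiated and induced arrays, and Ackr3 is highest at 14 days.

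The largest rise was that of Cxcl16 (probe set 17265268), which encodes a chemokine made both as a membrane-anchored and as a shed form and which also binds oxidized lipids. Its values were -1.87, -1.90 and -1.79 in undifferentiated cells, 0.13, 0.00 and 0.00 at 14 days, and 0.15, 0.10 and 0.14 at 28 days. All undifferentiated arrays lay far below all induced ones, and the induced groups touched each other. The change was 3.72-fold at 14 days (log2 1.90, SE 0.05, limma adjusted p = 9.81e-10) and 3.95-fold at 28 days (log2 1.98, limma adjusted p = 4.36e-10), the only rise of at least 2-fold among the 54 genes. After quantile normalization again the log2 changes were 1.01 and 1.08, and both stayed called. The gene overlaps Zmynd15, which rose by 0.66 and 0.98, and the part of that overlap in the result was not tested.

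Cxcr6 (probe set 17523642) encodes the known receptor for the Cxcl16 product. It stood at -0.65, -0.57 and -0.73 in undifferentiated cells, at 0.26, 0.11 and 0.26 at 14 days, and at 0.15, 0.00 and -0.01 at 28 days. Again no undifferentiated array reached an induced one. It rose by 0.86 at 14 days (SE 0.06, limma adjusted p = 1.94e-06) and by 0.70 at 28 days (limma adjusted p = 7.89e-06), the latter 0.42 and still called after quantile normalization again. Cxcr6 lies within the span of Fyco1, which encodes an adaptor of vesicle transport and rose by 0.75 and 0.95. Signal from the one gene may count for the other, and this was not tested. The receptor genes next along that chromosome did not pass the test: at 14 days Ccr9 was at 0.06, Xcr1 at 0.01, Ccr1 at -0.06, Ccr3 at 0.09 and Ccr2 at 0.06.

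The largest falls were among ligands that attract neutrophils, monocytes and lymphocytes. Cxcl15 (probe set 17438980), a CXC ligand known mainly from lung, had 1.11, 0.97 and 1.47 in undifferentiated cells, -0.36, -0.24 and -0.30 at 14 days, and -0.09, 0.03 and 0.00 at 28 days. The undifferentiated arrays were the highest throughout, and the 28-day arrays lay above the 14-day arrays. It was 2.79-fold lower at 14 days (log2 -1.48, SE 0.11, limma adjusted p = 1.25e-06) and 2.31-fold lower at 28 days (log2 -1.21, limma adjusted p = 4.91e-06), the latter at a log2 of -0.65 after quantile normalization again. The difference between 28 and 14 days was 0.28 (limma adjusted p = 0.172), and it was called after quantile normalization again (0.65, limma adjusted p = 0.000425).

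Ccl20 (probe set 17214857), which encodes the ligand of the receptor Ccr6 on lymphocytes and dendritic cells, was the most variable of the falling genes. Its undifferentiated arrays stood at 0.69, 1.18 and 1.38, its 14-day arrays at 0.00, -0.02 and -0.01, and its 28-day arrays at -0.25, 0.13 and -0.07. The groups with and without induction did not overlap. It fell by 1.09 at 14 days (SE 0.15, limma adjusted p = 0.000204) and by 1.15 at 28 days (limma adjusted p = 0.000125). Quantile normalization again gave -0.59 and -0.66, both still called.

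Ccl7 (probe set 17254047), a monocyte attractant, was tight in undifferentiated cells with 1.07, 1.04 and 1.03. It stood at -0.04, 0.00 and -0.08 at 14 days and at -0.04, -0.06 and 0.20 at 28 days. All induced arrays lay below all undifferentiated ones, with a change of -1.09 at 14 days (SE 0.07, limma adjusted p = 3.59e-07) and -1.01 at 28 days (limma adjusted p = 4.84e-07). With quantile normalization again the values were -0.62 and -0.52, both still called. Its neighbour Ccl2, which encodes the best known monocyte attractant of stromal cells and binds the same receptor, stood at 0.01 at 14 days (95% interval -0.08 to 0.10) and at -0.06 at 28 days (95% interval -0.15 to 0.03). Both intervals lie far from the change measured for Ccl7.

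Cxcl12 (probe set 17462149), the niche chemokine of marrow stroma, had 0.91, 0.82 and 0.84 in undifferentiated cells. It fell to -0.10, 0.00 and 0.05 at 14 days and to -0.11, -0.07 and -0.00 at 28 days. The undifferentiated arrays were apart from the rest and the induced groups overlapped. The gene was 1.83-fold lower at 14 days (log2 -0.87, SE 0.05, limma adjusted p = 2.49e-07) and 1.89-fold lower at 28 days (log2 -0.92, limma adjusted p = 1.31e-07). After quantile normalization again the changes were -0.49 and -0.54, both still called. In RNA of whole cultures, fewer cells that make a transcript and less of it per cell cannot be told apart, here or for the other genes.

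Of its receptors, Cxcr4, the signalling one, showed no change that passed the test, with 0.02 at 14 days (95% interval -0.07 to 0.12, limma adjusted p = 0.772) and 0.03 at 28 days (95% interval -0.06 to 0.13, limma adjusted p = 0.619). Its arrays ran from -0.07 to 0.00 in undifferentiated cells and from -0.04 to 0.07 at 28 days, and the 14-day arrays were tied at 0.00, so their spread is understated. Ackr3 (probe set 17215605), the atypical receptor that takes up the Cxcl12 product, had -0.29, -0.41 and -0.36 in undifferentiated cells, 0.44, 0.49 and 0.54 at 14 days, and -0.15, 0.00 and 0.06 at 28 days. The groups did not overlap, with the 14-day arrays on top and the 28-day arrays between. It rose 1.80-fold at 14 days (log2 0.85, SE 0.06, limma adjusted p = 1.08e-06) and was 1.44-fold lower at 28 than at 14 days (log2 -0.52, limma adjusted p = 0.000543), with 0.32 left against undifferentiated cells (limma adjusted p = 0.00118). The last call was lost after quantile normalization again (limma adjusted p = 0.299), where the log2 change was 1.37 at 14 days and -1.20 from 14 to 28 days.

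Of the other atypical receptors only Ackr4, a scavenger of the ligands of Ccr7 and Ccr9, was called. It had -0.23, -0.26 and -0.49 in undifferentiated cells, 0.25, 0.25 and 0.14 at 14 days, and 0.02, -0.03 and 0.00 at 28 days. The 3 groups did not overlap and followed the same order as in Ackr3. The change was 0.54 at 14 days (SE 0.07, limma adjusted p = 8.83e-05) and 0.32 at 28 days (limma adjusted p = 0.0029), the latter not called after quantile normalization again (limma adjusted p = 0.129). The drop from 14 to 28 days, -0.22, missed the threshold (limma adjusted p = 0.0888). Ackr4 overlaps Acad11, which rose by 0.82 and 0.88, and the part of that overlap in the result was not tested. Ackr1, which carries chemokines on endothelium and red cells, was at 0.00 and -0.05, and Ackr2, a scavenger of inflammatory CC ligands, was at 0.18 and 0.17 (limma adjusted p = 0.0876 and 0.094).

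**Figure D2:**
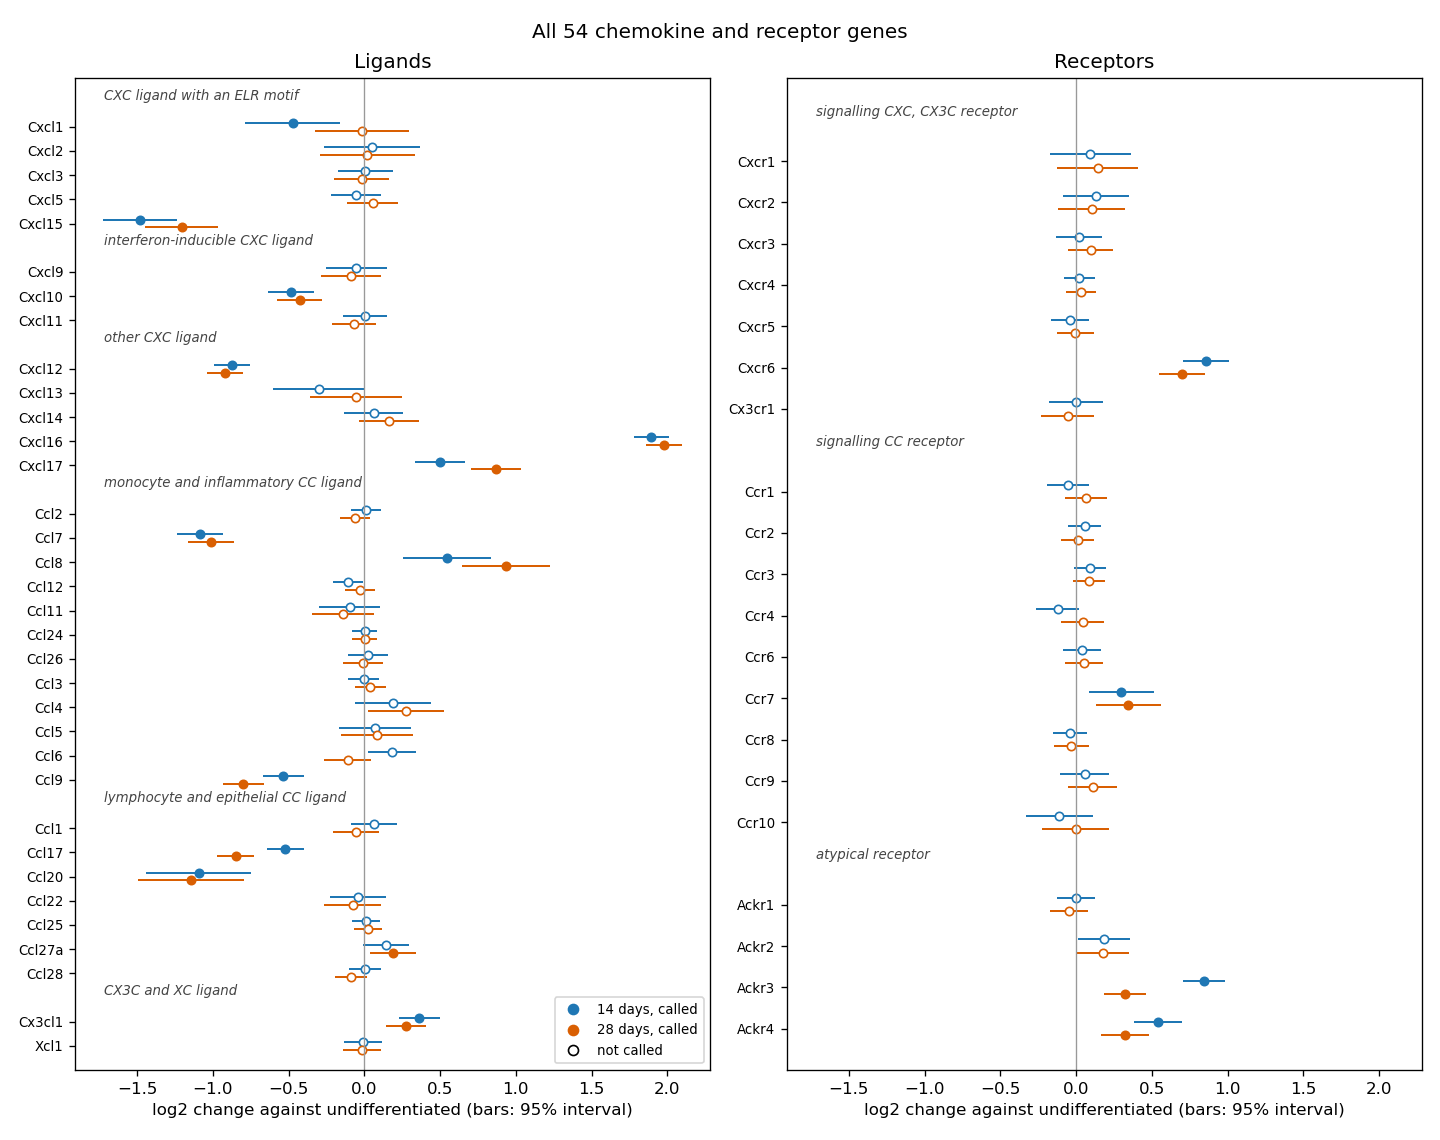
Log2 change against undifferentiated cells (horizontal axis) of all 54 genes, ligands left and receptors right, grouped by known role. Blue is 14 days, orange 28 days, bars are 95% intervals from limma and filled dots are called genes. Most receptor intervals include 0, while Cxcr6, Ackr3 and Ackr4 lie above it.

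Of the signalling receptors 2 of 16 were called at each time, both up (12.5%, against 35.7% of all genes at 14 days and 39.9% at 28 days). The other called receptor besides Cxcr6 was Ccr7, which guides dendritic cells and T cells to lymph nodes. Its undifferentiated arrays were -0.39, -0.42 and -0.04, its 14-day arrays -0.04, 0.09 and 0.00, and its 28-day arrays 0.00, 0.02 and 0.16. Replicate 3 of the undifferentiated cells lay with the induced arrays, and the rise of 0.30 at 14 days (SE 0.09, limma adjusted p = 0.0286) was lost without undifferentiated replicate 1 (limma adjusted p = 0.108) or 2 (0.109) and without 14-day replicate 2 (0.101) or 3 (0.0644). It was also lost after quantile normalization again (0.104) and with only the groups compared in the fit (0.0607). The rise of 0.34 at 28 days (limma adjusted p = 0.0128) was lost without undifferentiated replicate 1 (0.0543) or 2 (0.0535), without 28-day replicate 3 (0.0514), and after quantile normalization again (0.0769). Among the other 14 signalling receptors the log2 changes against undifferentiated cells ran from -0.12 for Ccr4 to 0.14 for Cxcr1.

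The ligands were called more often than the signalling receptors, in 12 of 34 genes at each time (35.3%), 4 up and 8 down at 14 days and 5 up and 7 down at 28 days. That share lies close to the share of all genes. The difference between ligands and receptors was not tested.

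Ligands that rose at both times, apart from Cxcl16, were Ccl8, Cxcl17 and Cx3cl1. Ccl8 (probe set 17254065), a monocyte attractant, had -0.79, -0.41 and -0.27 in undifferentiated cells, -0.02, 0.18 and 0.00 at 14 days, and 0.37, 0.33 and 0.64 at 28 days. The 3 groups lay in that order without overlap, but the difference between 28 and 14 days, 0.39, was not called (limma adjusted p = 0.106). The change was 0.55 at 14 days (SE 0.13, limma adjusted p = 0.00616) and 0.94 at 28 days (limma adjusted p = 0.000143). The first was not called after quantile normalization again (0.41, limma adjusted p = 0.0652).

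Cxcl17 (probe set 17487945), a ligand known from mucosal tissues, stood at -0.59, -0.35 and -0.57 in undifferentiated cells and at 0.27, 0.47 and 0.37 at 28 days. All 14-day arrays had the same value, 0.00, between the other groups, so the spread of that group is understated. It rose by 0.50 at 14 days (SE 0.07, limma adjusted p = 0.000223), by 0.87 at 28 days (limma adjusted p = 2.8e-06), and by 0.37 from 14 to 28 days (limma adjusted p = 0.011). The 14-day change was 0.29 after quantile normalization again, still called. Cxcl17 overlaps the non-coding gene 4732471J01Rik, which rose by 0.22 and 0.38, and the part of that overlap in the result was not tested. The next gene, Lipe, which encodes a lipase of fat stores, rose by 0.71 and 0.87.

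Cx3cl1 encodes fractalkine, a membrane-bound ligand shed by proteases. Its undifferentiated arrays were -0.19, -0.31 and -0.28, its 14-day arrays 0.00, 0.12 and 0.20, and its 28-day arrays -0.02, 0.02 and 0.05. It rose by 0.36 (SE 0.06, limma adjusted p = 0.000418) and 0.28 (limma adjusted p = 0.00248), the latter not called after quantile normalization again (limma adjusted p = 0.265). Its receptor gene Cx3cr1 stood at 0.00 and -0.06. Cx3cl1 overlaps the non-coding gene Gm51543, which has no value here, and the part of that overlap in the result was not tested.

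Smaller falls were measured for 3 further ligands at both times. Ccl17, an attractant of Ccr4-bearing T cells, had 0.44, 0.58 and 0.54 in undifferentiated cells, 0.00, 0.00 and -0.01 at 14 days, and -0.29, -0.28 and -0.41 at 28 days. The groups fell in order without overlap, by 0.52 at 14 days (SE 0.05, limma adjusted p = 1.49e-05), by 0.85 at 28 days (limma adjusted p = 2.92e-07) and by 0.33 between them (limma adjusted p = 0.00402). The 14-day change of Ccl17 was -0.30 after quantile normalization again, still called. Ccl22, which shares its receptor and lies 2 genes away, was at -0.04 and -0.08. Cx3cl1, which rose, lies between them.

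Ccl9, a ligand of Ccr1 made by myeloid and bone cells, had 0.50, 0.49 and 0.63, then 0.03, -0.01 and 0.00, then -0.30, -0.15 and -0.32. It followed the same falling order, by 0.53 (SE 0.06, limma adjusted p = 2.83e-05) and 0.80 (limma adjusted p = 1.05e-06), with -0.31 at 14 days after quantile normalization again, still called. Cxcl10, an interferon-inducible attractant of T cells, had 0.39, 0.35 and 0.56, then -0.01, -0.10 and -0.05, then 0.09, 0.00 and -0.08. Its induced groups overlapped each other below the undifferentiated arrays, with -0.48 (SE 0.06, limma adjusted p = 0.000143) and -0.43 (limma adjusted p = 0.000305), the latter -0.25 and still called after quantile normalization again. The other interferon-inducible ligands stayed without a call, with Cxcl9 at -0.05 and -0.09 and Cxcl11, annotated as a transcribed pseudogene in RefSeq, at 0.01 and -0.07.

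Cxcl1, a neutrophil attractant, was called at 14 days only. It had 0.02, 0.03 and 0.17 in undifferentiated cells, -0.61, -0.05 and -0.55 at 14 days, and 0.24, 0.00 and -0.08 at 28 days. The 14-day replicate 2 lay well above the other 14-day arrays. The change of -0.47 (SE 0.14, limma adjusted p = 0.0196) was lost without undifferentiated replicate 3 (0.0725), 14-day replicate 1 (0.0825) or 14-day replicate 3 (0.0783), and it was -0.98 after quantile normalization again (limma adjusted p = 0.047). At 28 days it stood at -0.01. The related ligands Cxcl2, Cxcl3 and Cxcl5 were at 0.05, 0.01 and -0.06 at 14 days, and none passed the test.

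Ccl27a, a skin-homing ligand gene with near-identical copies, is uncertain. Its probe sets disagreed: 1 had -0.43, -0.46 and -0.26 in undifferentiated cells, 0.00, 0.00 and 0.15 at 14 days, and 0.03, -0.10 and 0.14 at 28 days. The other had 0.00, 0.11 and 0.03, then -0.32, 0.00 and 0.00, and then 0.00, 0.00 and 0.06. Their mean rose by 0.19 at 28 days (limma adjusted p = 0.0395). That call was lost after quantile normalization again (0.494) and without undifferentiated replicate 1 (0.12) or 2 (0.0925), 14-day replicate 2 (0.0565), or 28-day replicate 1 (0.0801) or 3 (0.131). Ccl27a overlaps Il11ra1, which has no value here, and the part of that overlap in the result was not tested.

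Between 14 and 28 days 5 of 54 genes (9.26%) were called, against 7.39% of all genes (2.72% up and 4.67% down), and the arrays did not overlap in 12, against 24.4%. Cxcl17 rose, and Ackr3, Ccl17, Ccl9 and Ccl6 fell. Ccl9 fell by 0.26 (SE 0.06, limma adjusted p = 0.0208). Ccl6, a further myeloid ligand, had -0.14, 0.00 and 0.05 in undifferentiated cells, 0.21, 0.09 and 0.16 at 14 days, and -0.19, -0.02 and -0.21 at 28 days, a fall of 0.29 (SE 0.07, limma adjusted p = 0.0272). The 14-day arrays were above all others, and quantile normalization again gave -0.48 for Ccl6. Ccl6 overlaps the non-coding gene E230016K23Rik, which was at -0.36 at 14 days and -0.58 at 28 days against undifferentiated cells, and the part of that overlap in the result was not tested. Without 1 of the 14-day arrays, or without 28-day replicate 1 or 3, neither Ccl6 nor Ccl9 was called, with adjusted p-values from 0.0513 to 0.109 for Ccl6 and from 0.0612 to 0.0815 for Ccl9. Tested for more than a 1.5-fold change with limma, 0 of the 54 genes passed, against 0.126% of all genes, and at an adjusted p under 0.01 there were 2, Ackr3 and Ccl17. In limma's ordinary test 11 of the 54 genes (20.4%) had an unadjusted p under 0.05 between 14 and 28 days, against 20.4% of all genes.

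Ligands were set beside their known receptors in 31 pairs of measured genes. The pairs include Cxcl11, annotated as a transcribed pseudogene in RefSeq, with Ackr3 and with Cxcr3. At each time 10 pairs had a called ligand and 4 a called receptor, in 2 pairs both were called, and in 19 neither was. Of all genes 35.7% were called at 14 days and 39.9% at 28 days. Those called up were 18.2% and 20.4% of all genes. Whether paired genes move together more often than unrelated genes was not tested. Cxcl16 with Cxcr6 was the 1 pair in which both rose. In the other pair, Cxcl12 fell and Ackr3 rose. Falling ligands otherwise faced receptors without a call: at 14 days Ccl20 was at -1.09 and Ccr6 at 0.04, Ccl17 at -0.52 and Ccr4 at -0.12, Ccl7 at -1.09 and Ccr2 at 0.06, and Cxcl10 at -0.48 and Cxcr3 at 0.02. Pairs share members, so they are not independent of each other.

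**Figure D3:**
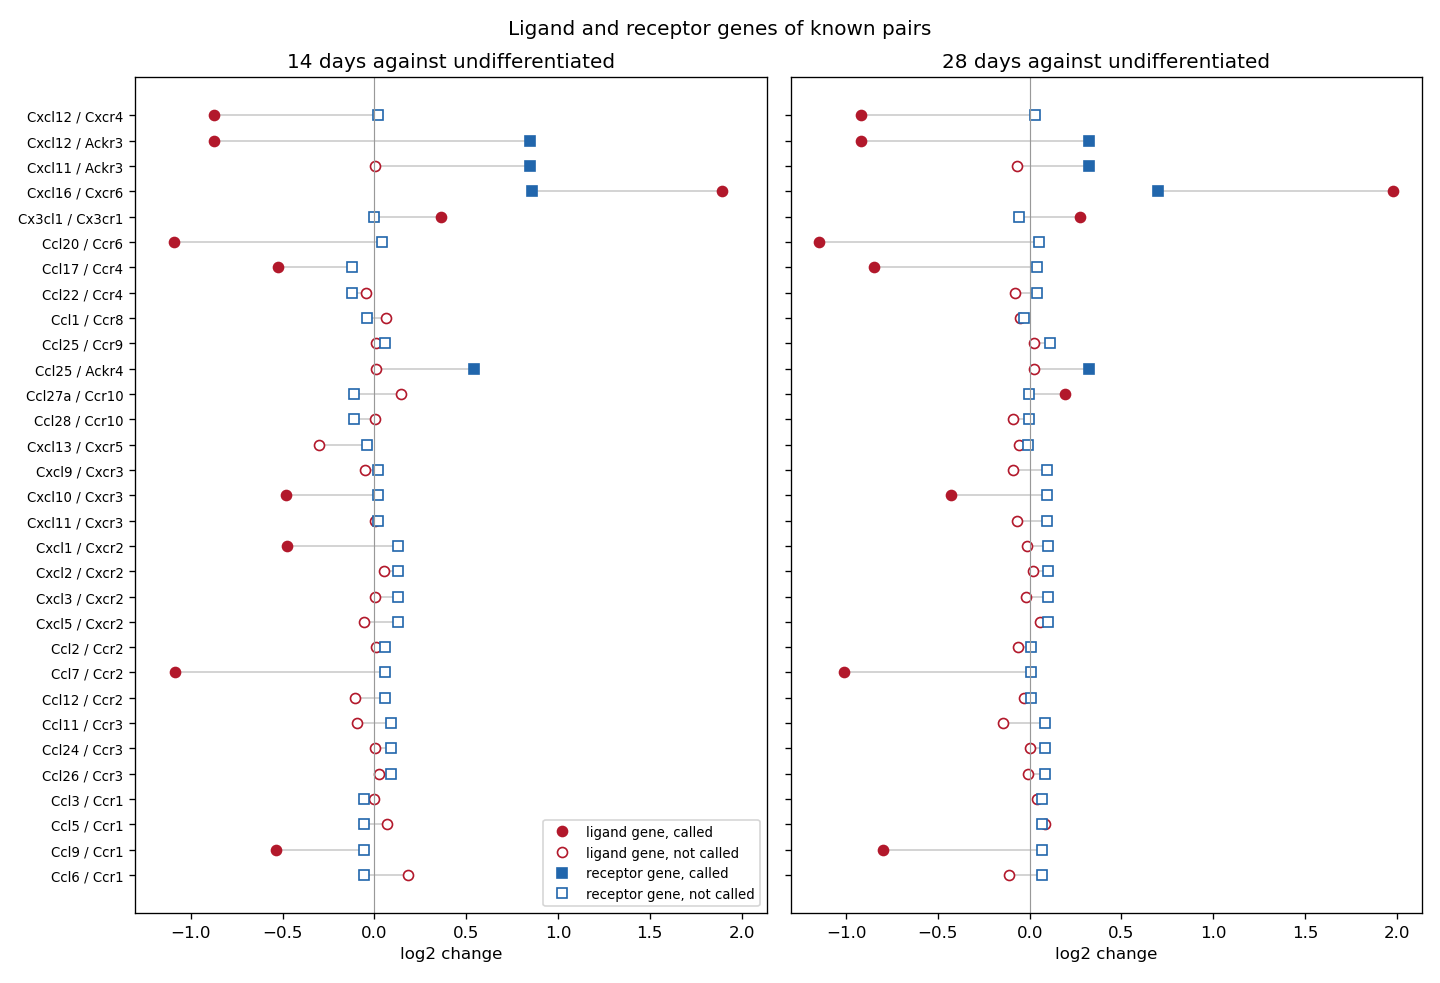
Log2 change against undifferentiated cells (horizontal axis) of the ligand gene (red circle) and the receptor gene (blue square) of 31 known pairs, at 14 days left and 28 days right. Filled symbols are called genes. Cxcl16 and Cxcr6 are both to the right of 0, and Cxcl12 and Ackr3 are on opposite sides.

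Many family genes lie side by side on the chromosomes, from the gene order of RefSeq for GRCm38.p6, and are described in that order. The counts stand beside the 35.7% of all genes called at 14 days. In the group on chromosome 11 that runs Ccl2, Ccl7, Ccl11, Ccl12, Ccl8 and Ccl1, 1 gene was called down and 1 up at 14 days and 4 were not called. In the group of Ccl5, Ccl9, Ccl6, Ccl3 and Ccl4 on the same chromosome, Ccl9 alone was called, and it was called down. On chromosome 5 the run from Cxcl5 to Cxcl2 holds Cxcl15 and Cxcl1, both called down at 14 days, and 3 other family genes without a call. It also holds the platelet chemokine genes Pf4, at -0.20 (limma adjusted p = 0.00782), and Ppbp, at -0.26 (limma adjusted p = 0.0825), which the naming rule leaves out. Cxcl10 lies within the span of Art3, which was at 0.12 and 0.15 and not called.

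**Figure D4:**
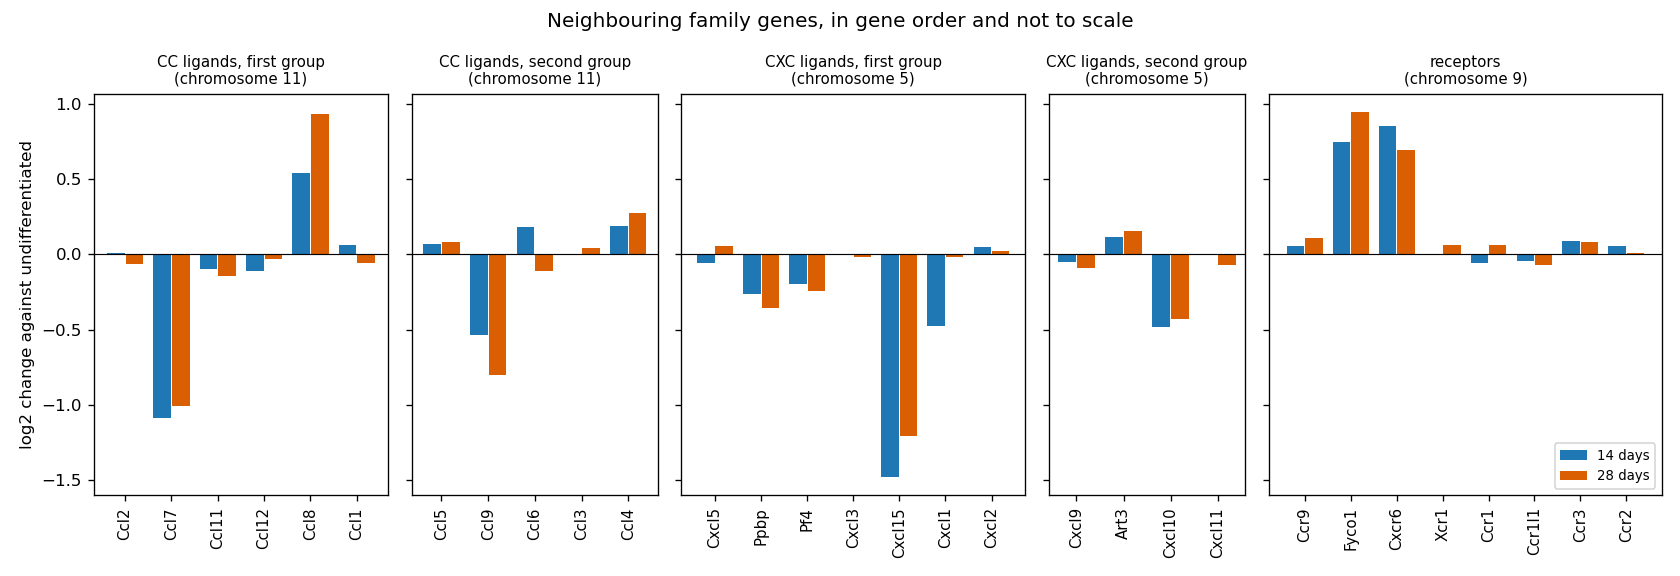
Log2 change against undifferentiated cells (vertical axis) of genes in 5 runs of neighbouring family genes, in chromosome order and without distances. Blue bars are 14 days and orange bars 28 days. Ccl7, Ccl9 and Cxcl15 have the largest falls of their runs, and some neighbours also moved, such as Ccl8 and, at 14 days, Cxcl1.

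The stretches just before the start sites of the falling ligands are shown for the motifs they hold, together with those of Cxcl2 and Cxcl3, which did not pass the test. Sequences are RefSeq's for GRCm38.p6, read 5′ to 3′ on the strand of the gene. Promoters were available for 40 of the 54 genes and not for Ccl7, so that falling ligand is not shown. Capitals mark matches, on both strands, to the NF-kappaB consensus, to the interferon motifs TTCNNNGAA (GAS) and ISRE, to TGANTCA (AP-1) and to TATAAA.
Cxcl10, chr5:92348890-92349119, minus strand: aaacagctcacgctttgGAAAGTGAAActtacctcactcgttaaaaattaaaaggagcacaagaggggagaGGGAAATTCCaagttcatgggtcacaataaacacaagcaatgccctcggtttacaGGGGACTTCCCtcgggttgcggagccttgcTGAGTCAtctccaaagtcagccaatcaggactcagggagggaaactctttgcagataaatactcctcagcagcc
Ccl20, chr1:83116656-83116765, plus strand: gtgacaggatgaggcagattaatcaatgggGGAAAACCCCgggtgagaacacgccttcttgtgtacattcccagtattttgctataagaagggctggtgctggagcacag
Ccl9, chr11:83578637-83578746, minus strand: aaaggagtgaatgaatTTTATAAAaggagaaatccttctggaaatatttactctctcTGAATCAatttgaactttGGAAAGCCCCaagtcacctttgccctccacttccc
Ccl17, chr8:94810343-94810452, plus strand: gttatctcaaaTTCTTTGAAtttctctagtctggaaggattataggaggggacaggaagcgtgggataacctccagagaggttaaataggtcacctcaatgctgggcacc
Cxcl15, chr5:90794424-90794533, plus strand: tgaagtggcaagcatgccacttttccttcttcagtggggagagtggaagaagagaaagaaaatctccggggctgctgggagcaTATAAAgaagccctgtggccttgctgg
Cxcl12, chr6:117168415-117168534, plus strand: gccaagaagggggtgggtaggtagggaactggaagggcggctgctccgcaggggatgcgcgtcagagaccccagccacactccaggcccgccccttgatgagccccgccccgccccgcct
Cxcl1, chr5:90891135-90891244, plus strand: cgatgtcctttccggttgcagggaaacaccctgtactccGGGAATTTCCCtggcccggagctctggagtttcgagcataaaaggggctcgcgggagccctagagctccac
Cxcl2, chr5:90903789-90903898, plus strand: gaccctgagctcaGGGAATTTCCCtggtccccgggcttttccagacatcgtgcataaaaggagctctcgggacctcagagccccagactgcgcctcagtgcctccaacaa
Cxcl3, chr5:90785991-90786100, plus strand: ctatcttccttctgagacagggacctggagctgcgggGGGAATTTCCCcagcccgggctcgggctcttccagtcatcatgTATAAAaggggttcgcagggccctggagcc

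Cxcl1, Cxcl2 and Cxcl3 carry the same letters at the NF-kappaB match, GGGAATTTCC. At 14 days Cxcl1 was called, a call lost when certain single arrays were left out, and Cxcl2 and Cxcl3 stood at 0.05 and 0.01. At 28 days Cxcl1 stood at -0.01 and was not called. The part of the motif in these values was not tested. Over the 250 bases before the start, 11 of the family's 44 promoters (25%) held the NF-kappaB consensus, against 7.25% of all 32851 promoters. TATAAA was in 27.3% against 12.4%, TGANTCA in 11.4% against 6.75%, TTCNNNGAA in 6.82% against 7.02% and ISRE in 4.55% against 2.98%. By call, the NF-kappaB consensus was before 4 of the 7 genes with a promoter entry that were called down against undifferentiated cells, before 0 of 6 genes called up and before 7 of 27 genes not called. TATAAA was before 2 of the 7 genes called down, 4 of the 6 called up and 6 of the 27 not called. Each other motif was before at most 2 genes of any of these groups. The counts are small and were not tested. The glucocorticoid receptor element was in 0 of 44 and in 0.387% of all promoters. These matches are descriptions of letters, and some overlap each other.

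Among genes that act on chemokines, the proteases that cleave or shed them mostly rose: of 16 measured, 11 were called up and 1 down at 14 days, and 10 up and 1 down at 28 days, with medians of 0.83 and 0.80. That is 75% and 68.8% of the list, against 35.7% and 39.9% of all genes, and the same shares of all genes apply to each list below. The lists were chosen with earlier results of these data known, so their shares are descriptions and no test. Mmp8, a collagenase known to trim neutrophil attractants, rose by 4.11 at 14 days, Anpep, an aminopeptidase, by 2.33, Ctsk, the collagen-degrading cathepsin K, by 2.11 and Mmp13 by 1.44. At 28 days the values were 4.29, 2.84, 3.32 and 1.80, and Mmp3 stood at 2.38. The member that fell was Adam10, a sheddase known to release the Cxcl16 and Cx3cl1 products, at -0.54 and -0.88. The dipeptidyl peptidase gene Dpp4, whose product inactivates the Cxcl12 ligand, was at 0.09 and 0.15 and not called.

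**Figure D5:**
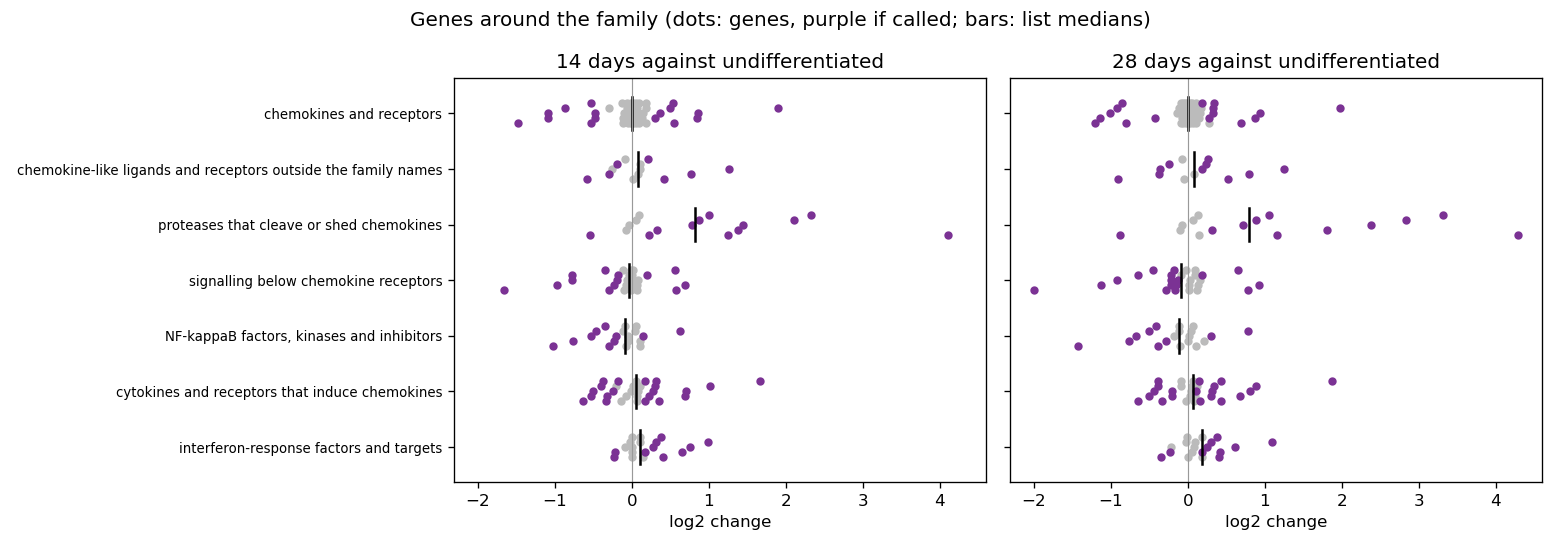
Log2 change against undifferentiated cells (horizontal axis) of the 54 family genes and of 6 lists of genes around them, at 14 days left and 28 days right. Dots are genes, purple where called, and black bars are list medians. The protease list has the highest median, 0.83 at 14 days, and the other medians lie near 0.

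Of 13 measured chemokine-like genes outside the family names, 4 rose and 3 fell at 14 days, and 6 rose and 4 fell at 28 days (53.8% and 76.9% called), with medians of 0.08 and 0.08. Cmklr1, the receptor for chemerin, rose by 1.26 at 14 days, Ccrl2, which presents chemerin, by 0.41 and 0.79, Cmtm3 by 0.77 and 0.52, and Cklf fell by 0.58 and 0.90. Of 27 genes that signal below the receptors, 4 rose and 9 fell at 14 days and 4 rose and 13 fell at 28 days, which is 48.1% and 63% called. Rgs4, which shortens G protein signals, was at -1.66 at 14 days, Grk6, a kinase that switches receptors off, at -0.97 and -1.13, and Gnai1, an inhibitory G protein subunit, at -0.78 and -0.92. Tiam1, an activator of Rac, was at -0.77 and -0.65, and Elmo1 rose by 0.58 and 0.93.

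Of 19 measured NF-kappaB factors, kinases and inhibitors, 2 rose and 8 fell at 14 days, and 2 rose and 7 fell at 28 days. That is 52.6% and 47.4% called, with 17.5% and 19.5% of all genes called down. Rel, a subunit, was at -1.02 and -1.42, Map3k14, a kinase of the alternative pathway, at -0.76 and -0.67, and the inhibitor gene Tnfaip3 at -0.54 and -0.77. Tnip1, another inhibitor, rose by 0.63 and 0.78, and Rela was at -0.07 and -0.10 without a call. Of 30 cytokines and receptors that induce chemokines, 11 rose and 9 fell at 14 days and 12 rose and 8 fell at 28 days (66.7% called at each). Il13ra1 rose by 1.67 and 1.88, Tlr4 by 1.02 and 0.89, Il6ra by 0.71 and 0.81 and Tlr3 by 0.69 and 0.68. Of 19 interferon-response genes, 8 rose and 2 fell at each time (52.6% called), with Oasl2 at 0.99 and 1.10 and Irf9 at 0.65 and 0.61. Stat2 was highest at 14 days, with arrays of 0.44, 0.225 and 0.453. Its undifferentiated arrays were -0.399, -0.369 and -0.397, and its 28-day arrays 0.158, -0.11 and 0.

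Markers of other cells moved in part beside these changes. Of 6 general leukocyte markers Itgb2 alone rose, and of 8 macrophage markers Csf1r and Cd68 rose, by 1.81 and 0.30 at 14 days and 2.10 and 0.75 at 28 days. None of either list was called down. The mean of the macrophage list ran from -0.28 to -0.20 in undifferentiated arrays, from -0.06 to 0.00 at 14 days and from 0.05 to 0.11 at 28 days. That mean follows Csf1r and Cd68 rather than most members, as the list's median log2 change was -0.02 at 14 days and 0.03 at 28 days. Of 7 endothelial markers 4 rose at 14 days and 5 at 28 days, led by Kdr. Of the B cell, T and NK cell and neutrophil lists, 0 of 5, 0 of 7 and 1 of 8 genes rose at 14 days, and 1 of 5, 0 of 7 and 1 of 8 at 28 days. Of 6 osteoclast markers Ctsk alone was called, up at both times, and the mean of that list ran from -0.43 to -0.33 in undifferentiated arrays, from 0.00 to 0.02 at 14 days and from 0.19 to 0.23 at 28 days. This mean follows Ctsk, as the list's median log2 change was 0.05 at 14 days and 0.08 at 28 days. Of 8 stromal markers 2 were called up and 1 down at each time (37.5% called), with medians of 0.08 and 0.11. Among them Pdgfra rose by 1.27 and 1.42 and Col1a1 was at -0.26 and -0.39. Centred values give no level, so which markers are absent cannot be read, and their part in the chemokine results was not tested.

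For the 36 genes called in no comparison, the largest absolute log2 change was 0.30 at 14 days and 0.28 at 28 days, and the widest 95% interval reached 0.60 and 0.52. Ccl5, which attracts T cells and monocytes, stood at 0.07 and 0.08, with undifferentiated arrays from -0.37 to 0.14. Ccl3 and Ccl4, macrophage inflammatory proteins, stood at 0.00 and 0.19 at 14 days and at 0.04 and 0.28 at 28 days. Ccl11, an attractant of eosinophils, was at -0.10 and -0.14. Cxcl13, which attracts B cells, was at -0.30 and -0.06, with undifferentiated arrays of 0.01, -0.09 and 0.50, and Cxcl14 was at 0.06 and 0.16. Ccl24 had the least movement, with values between 0.00 and 0.01 on all arrays, and its undifferentiated arrays were tied.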

How the data were processed

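Biotin-labelled total RNA of 9 cultures was read on expression arrays. The deposited values are on a log2 scale; the submitters' processing notes name RMA, and the array software was not recorded in the labels read here. Every probe set has a median of 0 over the 9 arrays, a centring whose step is not stated, so levels are lost. Per the labels, RNA integrity averaged 9.9. Direction (higher means more RNA) is assumed. Probe sets with 1 gene in the supplied annotation (23521; 1814 have several and 8459 none) were averaged per gene, and all 54 family genes matched RefSeq by Entrez number. limma 3.58.1 in R 4.3.3 fitted 1 mean per group over the 9 arrays (6 residual and 3.81 prior degrees of freedom). The fit was tested on simulated data. Array medians are 0, and 15.2% to 28.1% of an array's values are exactly 0. For arrays, their number limits the precision.

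Full values are given for called genes, up to 12 per comparison by size, extended after the values were seen to all 18, and for Cxcl12, Cxcr4 and Ackr3. Lists give up to 4 called genes by size, and other genes named were chosen after their values were seen. The members and lists were chosen with earlier results of these data known.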

Additional observations from a re-analysis of the deposited data

Results flagged for a closer look

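For 5 genes the change against undifferentiated cells differed between 14 and 28 days in the test of that difference: -0.52 for Ackr3, -0.33 for Ccl17, -0.29 for Ccl6, -0.26 for Ccl9 and 0.37 for Cxcl17 (28 minus 14 days, log2). Ackr3 and Ccl17 kept the call at an adjusted p under 0.01.

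A further 33 probe sets, left out of the comparisons, are shared by several genes of which 1 or more are Ccl19, Ccl21 or Ccl27 genes and copies. The mean of the 11 probe sets shared by Ccl27 genes was above the level of undifferentiated cells, by 0.44 at 14 days and 0.57 at 28 days, and all 11 were called up at both times in limma over all 33794 probe sets. Their means were -0.41, -0.47 and -0.41 in undifferentiated arrays, 0.00, 0.02 and 0.03 at 14 days, and 0.16, 0.06 and 0.20 at 28 days. They cannot be assigned to 1 gene. Of the 13 probe sets shared by Ccl19 genes and the 9 shared by Ccl21 genes 0 were called.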

How the results depend on the processing

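No called family gene changed direction under any alternative run. The calls of 13 of 16 genes at 14 days, 11 of 16 at 28 days and 3 of 5 between them held in every alternative other than the stricter thresholds. Quantile normalization again left 4 genes called up at 28 days and 9 called between 14 and 28 days, 3 up and 6 down; it gives all arrays the same spread. Between 14 and 28 days, 2 genes were called up with only the groups compared in the fit and 2 with a standard deviation of at least 0.1. At an adjusted p under 0.01 that comparison had 2 calls, 0 up and 2 down. Tested for more than a 1.5-fold change, 6 genes passed at 14 days (3 up, 3 down), 8 at 28 days (2 up, 6 down) and 0 between them (0 up, 0 down). Leaving out 1 array at a time gave 14 to 17 calls at 14 days (7 to 9 up, 7 to 9 down), 14 to 17 at 28 days (7 to 9 up, 7 to 8 down) and 3 to 7 between them (1 to 2 up, 2 to 5 down). Same-numbered arrays did not deviate together (correlations from -0.14 to 0.07), but with 3 arrays per group this cannot exclude pairing. With the replicate block 16, 17 and 4 genes were called. Genes called in no comparison under the design reported here passed in single alternatives, such as Ccl4 at 28 days with the replicate block (0.28, adjusted p = 0.0212).

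Values are centred, tied arrays (Cxcl17, Cxcr1 and Cxcr4 at 14 days, Ccl24 in undifferentiated cells) understate the spread, and 3 arrays per group limit the precision. Quantile normalization was applied to centred values, since uncentred ones were not used here.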
